A study of Homo sapiens with 15 samples.

Results

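The 10 genes described here encode secreted proteins of the extracellular matrix: SPARC, POSTN (periostin), TNC (tenascin-C), FN1 (fibronectin), THBS1 and THBS2 (thrombospondins), FBN1 and FBN2 (fibrillins), FBLN1 (fibulin-1) and ITIH5 (a heavy chain of the inter-alpha-trypsin inhibitor family). They were taken by gene symbol from the deposited count table, which lists 15510 genes, and all 10 were found there and passed the filter on low counts that left 13599 genes for testing. No measured value entered the choice by symbol, though the set was drawn up with earlier results of these data known.

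Poly(A) RNA was sequenced from 5 human lines, with 3 libraries per line. ARPE19 is an established line of retinal pigment epithelium and was sequenced here without any plasmid. T53D4 was made from it with plasmids for hTERT (telomerase) with p53DD (a dominant negative p53 fragment) and for cyclin D1 with CDK4R24C (a CDK4 mutant), and the other 3 lines are labelled as carrying those plasmids too. RasV12 adds an active H-RAS, MekDD an active MEK, the kinase that feeds ERK in the MAPK cascade, and AKTmyr an HA-tagged, myristoylated AKT, which stands for the PI3K branch; the label says HA, while the construct row in the count table is named for a FLAG tag. By their labels, RasV12 and AKTmyr are transformed and MekDD weakly so, whereas T53D4 and ARPE19 are not. All cells grew in DMEM/F12 with fetal bovine serum, and each replicate was a cryovial thawed on its own and passaged 2 times. Each construct is represented by 1 line, so the p-values below compare these lines against the spread between vials and do not cover lines made independently. In the series' title the question is what hyperactive RAS/MAPK signalling does to dividing cells; the comparisons here describe how matrix genes differ between the lines.

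Matricellular proteins, such as SPARC, periostin, tenascin-C and the thrombospondins, sit in the matrix without forming its scaffold and change how cells adhere, spread and respond to growth factors. Fibronectin is assembled by integrins on the cell surface into fibrils, and fibrillins form microfibrils that carry elastin and hold latent TGF-beta, with fibulins binding to both networks. The inter-alpha-trypsin heavy chains bind hyaluronan, a large sugar polymer of the matrix. In the eye, the pigment epithelium lays down part of the membrane on which it rests, and matrix genes of this kind are known to be active in cultured pigment epithelium.

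The promoters of POSTN, FBLN1 and ITIH5 are shown because these 3 genes had the widest range of line means among the 10. Each sequence is the longest run, within the 250 bases before the RefSeq start site on GRCh38.p14, that lies outside the exons of the deposited annotation, written 5′ to 3′ on the gene's strand. Capitals mark matches to any of 6 motifs searched on both strands: TGANTCA, which AP-1 factors bind, GGAATG, the core read by TEAD factors, CAGACA, an element of SMAD proteins, GGGCGG, the GC box, TATAAA, the TATA box near many start sites, and CCAAT, the CAAT box. The runs lie at chr13:37598845-37599018 on the minus strand for POSTN, at chr22:45502633-45502831 on the plus strand for FBLN1 and at chr10:7666999-7667216 on the minus strand for ITIH5. In the deposited annotation FBLN1 starts earlier, at 45502238, so its run lies before the RefSeq start but inside the annotated gene, between exons.
POSTN: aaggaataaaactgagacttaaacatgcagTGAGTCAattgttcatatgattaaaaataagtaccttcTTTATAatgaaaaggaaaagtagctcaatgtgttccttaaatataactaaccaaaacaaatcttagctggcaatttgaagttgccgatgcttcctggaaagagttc
FBLN1: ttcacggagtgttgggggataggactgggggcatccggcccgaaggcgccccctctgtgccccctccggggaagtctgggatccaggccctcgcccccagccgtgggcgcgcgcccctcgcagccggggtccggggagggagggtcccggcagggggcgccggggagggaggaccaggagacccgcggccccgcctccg
ITIH5: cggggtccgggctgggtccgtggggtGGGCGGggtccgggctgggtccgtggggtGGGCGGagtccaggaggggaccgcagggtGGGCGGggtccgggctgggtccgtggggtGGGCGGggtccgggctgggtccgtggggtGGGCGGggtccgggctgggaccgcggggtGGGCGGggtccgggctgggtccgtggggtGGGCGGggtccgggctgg

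The POSTN window held an AP-1 match that starts 220 bases before the start site, and 6.57% of the 35116 RefSeq promoter windows of the same length hold one. It also held TATA matches at 182 bases on the other strand and at 29 bases, the latter outside the printed run, and 10.7% of windows hold a TATA match. The ITIH5 window held 8 GC boxes spaced 29 bases apart, of which 7 fall in the printed run. A GC box is found in 42.6% of windows, but 8 or more in 0.584% (205 windows). FBLN1 had a GC box 36 bases before its RefSeq start, beyond the printed run, and no other motif. GC content was 82.8% for ITIH5, 77.6% for FBLN1 and 36.4% for POSTN. Over all 10 members, GC boxes were in 6, TEAD matches in 4 (11.9% of all windows), CAAT matches in 3 (32% of all windows), SMAD matches in 2 (13.6% of all windows), TATA matches in 2 and the AP-1 match in 1. These matches describe letters in the window and do not show binding.

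Sequencing depth was 20.63 to 46.55 M reads on genes per library, and the 10 genes took 0.187% to 1.02% of them. Construct rows followed the labels for active RAS, MEK and AKT, each highest in its own line, and for hTERT and p53DD, both near 0 in ARPE19. Cyclin D1 and CDK4 rows gave no clear match to 2 labels: in the libraries labelled T53D4 they averaged 146 and 92.2 CPM (counts scaled to library size, with TMM factors), beside 193 and 70.7 CPM in ARPE19. In the libraries labelled MekDD they averaged 270 and 142 CPM, with the CDK4 row above ARPE19 (SD 13.7 and 12.0 CPM). Both were far below RasV12, at 2350 and 2380 CPM, and AKTmyr, at 858 and 1006 CPM. ARPE19 had reads in both rows without a plasmid, so low levels cannot show whether these plasmids are present. T53D4 and MekDD are therefore used below as names of the libraries with those labels, and every direction drawn from them carries this limit. Of 14 pigment epithelium markers, 12 were in the table, and KRT8, KRT18, OTX2 and MITF were present in all 5 lines. The list summed to 2456 to 2534 CPM in ARPE19 libraries, 1587 to 1945 in T53D4, 859 to 1041 in RasV12, 1126 to 1404 in MekDD and 1336 to 2037 in AKTmyr. Most of each sum came from the keratins KRT8 and KRT18 (1681 and 650 CPM in ARPE19, 610 and 206 CPM in RasV12). MITF was also lower in RasV12 (27.5 CPM) than in ARPE19 (83.3 CPM), but OTX2 was not (69.3 and 64.9 CPM). SERPINF1 went against the sum in MekDD, where it averaged 26.3 CPM, beside 10.1 CPM in ARPE19, 7.90 in T53D4, 9.24 in RasV12 and 2.16 in AKTmyr. BEST1, RLBP1, LRAT, TYRP1, PMEL and TYR had line means of at most 7.10 CPM. RPE65, a defining enzyme of the visual cycle, had line means at or below 0.101 CPM. Immune and endothelial markers summed to at most 5.94 CPM in any library.

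Between lines, the share of variance in log2 level that lay between rather than within lines was 96.7% for ITIH5, 85.4% for POSTN, 83.0% for FBLN1, 82.6% for SPARC, 78.2% for THBS2 and 75.0% for TNC. The median over all tested genes was 59.6%. FBN2 was near that median at 59.0%, and THBS1 (43.9%), FBN1 (26.1%) and FN1 (7.75%) were below it. ITIH5 and FN1 thus stood at the ends of a wide range. The highest line mean exceeded the lowest 1552-fold for ITIH5, with almost no reads in its lowest line, 92.0-fold for POSTN and 28.3-fold for FBLN1. For SPARC, TNC, THBS2 and THBS1 the ratio was 6.77, 5.58, 4.78 and 3.26. It was 1.81 for FBN2, 1.48 for FBN1 and 1.40 for FN1.

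**Figure D1:**
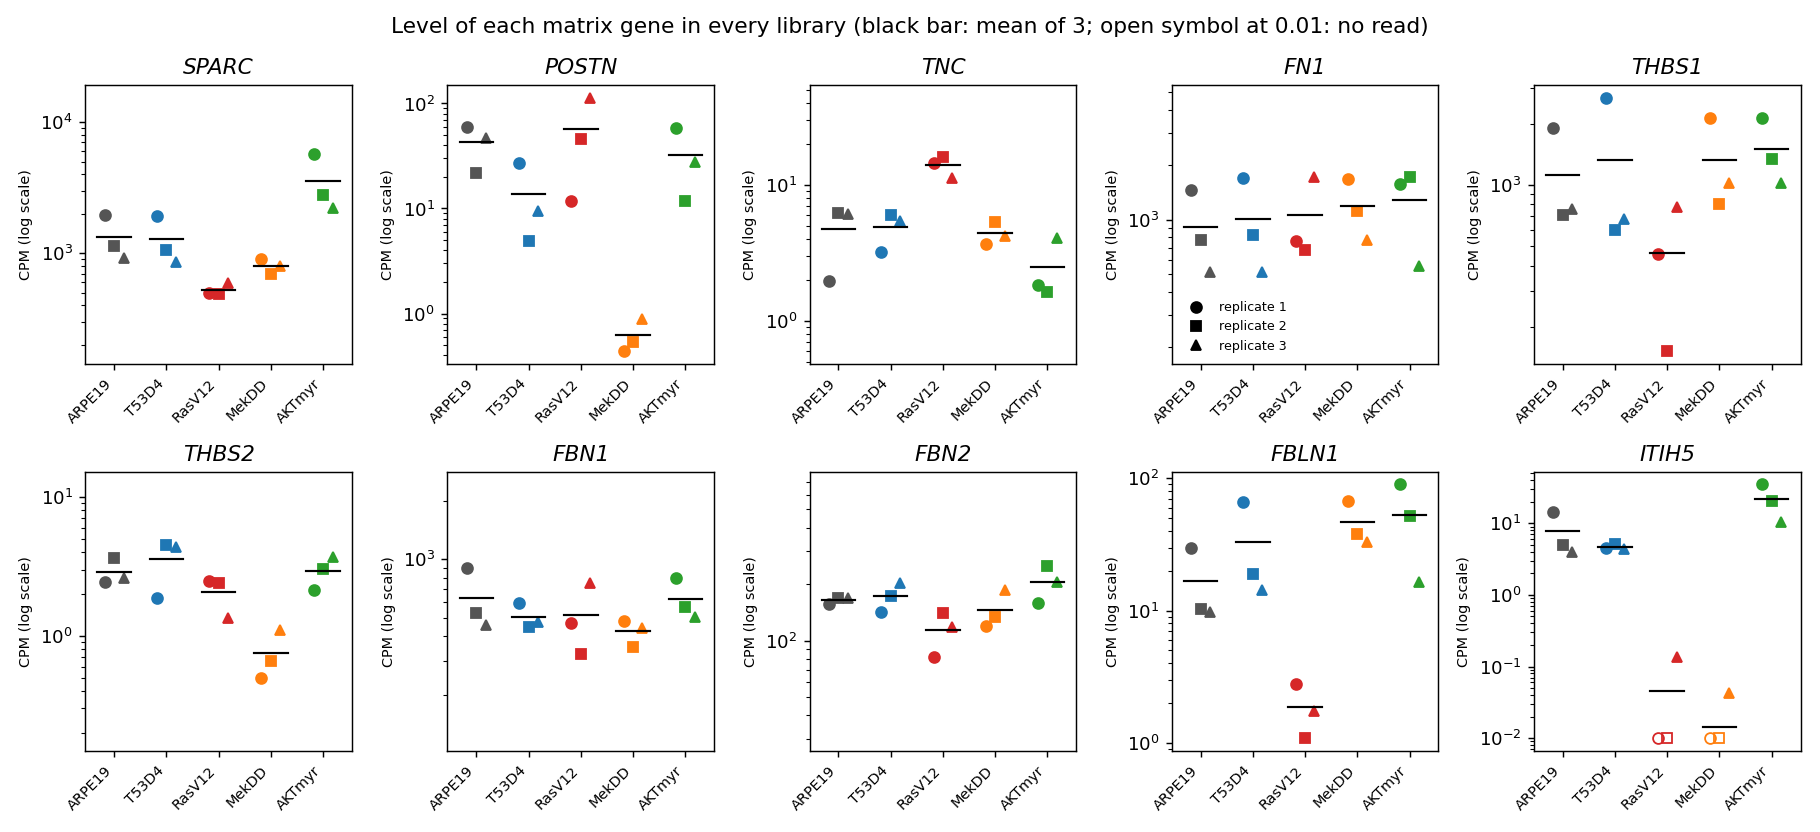
Level of each gene in each of the 15 libraries (y axis, CPM on a log scale) by line (x axis), with marker shape for the replicate number, a bar for the line mean and a separate axis range in each panel. Open symbols mark libraries without a read. ITIH5 lies near 0 in RasV12 and MekDD, POSTN is lowest in MekDD, FBLN1 is lowest in RasV12, and FN1 overlaps in all lines.

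Ordered by line mean, each of 6 genes had 1 pair of neighbouring lines that differed by the test, and the other neighbours did not differ beyond their spread or were not called. POSTN ran RasV12, ARPE19, AKTmyr, T53D4, MekDD, with the called step between T53D4 (13.9 CPM) and MekDD (0.619 CPM). TNC ran RasV12, T53D4, ARPE19, MekDD, AKTmyr, with the step between RasV12 (14.1 CPM) and T53D4 (4.90 CPM). THBS2 ran T53D4, AKTmyr, ARPE19, RasV12, MekDD, with the step between RasV12 (2.08 CPM) and MekDD (0.753 CPM). In these 3 genes, and in FBLN1 (RasV12) and SPARC (AKTmyr) below, 1 line stood away from the other 4. FBLN1 ran AKTmyr, MekDD, T53D4, ARPE19, RasV12, with the step between ARPE19 (16.6 CPM) and RasV12 (1.87 CPM). ITIH5 ran AKTmyr, ARPE19, T53D4, RasV12, MekDD, with the step between T53D4 (4.67 CPM) and RasV12 (0.0450 CPM). SPARC ran AKTmyr, ARPE19, T53D4, MekDD, RasV12, with the step between the first pair. FN1, THBS1, FBN1 and FBN2 had no called step.

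Compared per kilobase of exon, SPARC had the highest mean of the 10 genes in every line, from 113 CPM per kb in RasV12 to 765 CPM per kb in AKTmyr. In MekDD replicate 1, however, THBS1 (233 CPM per kb) was above SPARC (195 CPM per kb). Next by mean came THBS1 in 4 lines, at 122 to 164 CPM per kb, and FN1 in RasV12, at 61.3 CPM per kb against 50.3 for THBS1. The RasV12 order lay within the spread, with SDs of 33.5 for FN1 and 34.0 for THBS1. THBS2 reached at most 0.561 CPM per kb (T53D4) and TNC at most 1.46 (RasV12). Of the reads per kilobase of the thrombospondin pair, THBS2 supplied 0.101% to 1.08% as line means, so THBS1 carried nearly the whole pair. Of the fibrillin pair FBN2 supplied 22.7% to 29.6%, while the SD between the RasV12 libraries alone was 10.2 percentage points.

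SPARC, a collagen-binding matricellular protein, was highest in AKTmyr and lowest in RasV12. It is encoded at chr5:151661096-151686975 on the minus strand of hg38 (ENSG00000113140). In replicates 1, 2 and 3, ARPE19 had 1944, 1141 and 925 CPM and the libraries labelled T53D4 had 1925, 1056 and 862 CPM. RasV12 had 501, 484 and 588 CPM, MekDD had 907, 692 and 798 CPM, and AKTmyr had 5657, 2777 and 2222 CPM. Every AKTmyr library was above every other library, and every RasV12 library was below every other library. Against the libraries labelled T53D4, SPARC rose in AKTmyr by 1.47 on the log2 scale (SE 0.37, edgeR quasi-likelihood adjusted p = 0.0142) and fell by 1.29 in RasV12 (SE 0.37, adjusted p = 0.0204). Between AKTmyr and RasV12 the fold was 6.77 (log2 difference -2.76 for RasV12, adjusted p = 0.000115), and MekDD was also below AKTmyr (log2 difference -2.15, adjusted p = 0.00125). Against ARPE19, SPARC rose by 1.41 in AKTmyr (adjusted p = 0.0188) and fell by 1.35 in RasV12 (adjusted p = 0.0135).

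Several of these SPARC calls passed the threshold in the fit of all libraries but not without 1 of them, and all 6 called comparisons also passed with the replicate block, for instance RasV12 against T53D4 (-1.17, adjusted p = 0.00291) and AKTmyr against T53D4 (1.45, adjusted p = 0.00104). The fall in RasV12 against the libraries labelled T53D4 had adjusted p = 0.111 (log2 difference -0.86) without T53D4 replicate 1, and -1.25 (adjusted p = 0.0652) and -1.23 (adjusted p = 0.0696) without RasV12 replicates 1 and 2. The rise in AKTmyr against T53D4 was 0.98 (adjusted p = 0.0749) without AKTmyr replicate 1. Without T53D4 replicates 2 and 3 it was 1.35 (adjusted p = 0.0559) and 1.25 (adjusted p = 0.0596). The rise against ARPE19 was 0.90 (adjusted p = 0.1001) without AKTmyr replicate 1, and 1.31 (adjusted p = 0.0793) and 1.202 (adjusted p = 0.0717) without ARPE19 replicates 2 and 3. The fall in RasV12 against ARPE19 had a log2 difference of -0.97 (adjusted p = 0.0764) without ARPE19 replicate 1. The calls between AKTmyr and RasV12 or MekDD held without any of the libraries. In the order of line means, ARPE19 and T53D4 (1337 and 1281 CPM) did not differ beyond their spread, nor did T53D4 and MekDD (799 CPM). MekDD and RasV12 (525 CPM) shared no values but were not called (adjusted p = 0.306).

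The summed level of fibroblast markers was lowest in RasV12 and reached its highest value in AKTmyr, as SPARC did, through 2 genes of the list. Of 8 such genes 7 were in the table, and the sum ranged over 26.5 to 41.8 CPM in RasV12, 48.6 to 59.3 in MekDD, 51.7 to 185 in ARPE19, 84.9 to 229 in T53D4 and 91.8 to 568 CPM in AKTmyr. COL1A1 (5.81 CPM in RasV12, 134 CPM in AKTmyr) and PDGFRB, a PDGF receptor (28.9 and 159 CPM), made up most of it. Both varied widely in AKTmyr, over 13.0 to 335 CPM for COL1A1 and 77.7 to 231 CPM for PDGFRB. The lowest AKTmyr value of COL1A1 was below the highest in ARPE19 (28.9 CPM), T53D4 (112 CPM) and MekDD (33.2 CPM). COL1A2, DCN, LUM and PDGFRA, which also define fibroblasts, had line means of 0.477 CPM or less, with PDGFRA and DCN highest in RasV12. THY1 averaged 1.10 CPM in ARPE19, 0.575 in T53D4 and 0.0752 in AKTmyr. Of 5 neural markers 4 were in the table, summing to 8.29 to 22.5 CPM in RasV12, 9.44 to 37.1 in MekDD, 37.8 to 74.9 in ARPE19, 20.1 to 115 in T53D4 and 44.7 to 142 in AKTmyr, mostly from MAP2 (15.6 CPM in RasV12, 80.7 CPM in AKTmyr). The part of these genes in the SPARC result was not tested, and in such bulk libraries fewer cells of a type and less RNA per cell cannot be told apart. SPARC shares 191 exonic bases with CLMAT3, an antisense gene, and whether counting used strand is not stated.

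POSTN, an adhesion protein that binds integrins, was nearly silent in MekDD and spread widely elsewhere. The gene lies at chr13:37562583-37598844 on the minus strand (ENSG00000133110). MekDD had 0.436, 0.534 and 0.887 CPM (56 reads in all). ARPE19 had 60.0, 21.7 and 46.5 CPM, the libraries labelled T53D4 had 27.2, 4.92 and 9.48 CPM, RasV12 had 11.8, 45.4 and 114 CPM, and AKTmyr had 58.2, 11.8 and 27.5 CPM. Every MekDD library was below every library of the other lines, which overlapped one another. The log2 difference of MekDD was -4.52 against T53D4 (SE 0.98, adjusted p = 0.0154), -6.15 against ARPE19 (adjusted p = 0.00189) and -5.75 against AKTmyr (adjusted p = 0.00117). RasV12 was above MekDD by 6.56 (SE 1.02, adjusted p = 0.000689), or 5.57 without RasV12 replicate 3, and the difference between MekDD and AKTmyr was -5.03 without AKTmyr replicate 1. The call against T53D4 was lost without T53D4 replicate 1 (log2 difference -3.55, adjusted p = 0.0557) and without MekDD replicates 1 and 2 (adjusted p = 0.0779 and 0.0801). POSTN in RasV12 against T53D4 was not called in the fit without a block (2.04, adjusted p = 0.072), and the lines overlapped. With the replicate number as a block it was called higher, by 2.33 (adjusted p = 0.0216), although within replicate 1 RasV12 (11.8 CPM) was below T53D4 (27.2 CPM). In fits without the block it passed when T53D4 replicate 1 (3.01, adjusted p = 0.0265) or RasV12 replicate 1 (2.52, adjusted p = 0.0255) was left out.

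TNC, which weakens adhesion to fibronectin, was highest in RasV12. Its locus is chr9:115019575-115118257 on the minus strand (ENSG00000041982) and had low levels throughout. RasV12 had 14.6, 16.2 and 11.3 CPM. The other lines lay between 1.63 and 6.22 CPM. Every RasV12 library was therefore above every other library. TNC rose in RasV12 by 1.52 against T53D4 (SE 0.41, adjusted p = 0.0154), by 1.56 against ARPE19 (adjusted p = 0.0112), by 1.67 against MekDD (adjusted p = 0.0145) and by 2.51 against AKTmyr (adjusted p = 0.000516). The call against T53D4 was lost without T53D4 replicate 1 (adjusted p = 0.0618) or RasV12 replicate 2 (adjusted p = 0.0519). The call against MekDD was lost without RasV12 replicate 2, MekDD replicate 1 or MekDD replicate 3, at adjusted p = 0.0534, 0.0548 and 0.0556. TNC in AKTmyr, at 1.84, 1.63 and 4.08 CPM, was not called against T53D4, but was without AKTmyr replicate 3 (log2 difference -1.501, adjusted p = 0.0286). Without that library TNC was also called lower in AKTmyr than in ARPE19 (-1.46, adjusted p = 0.0379) and higher in MekDD than in AKTmyr (1.36, adjusted p = 0.0332), and without ARPE19 replicate 1 it was called lower in AKTmyr than in ARPE19 (-1.32, adjusted p = 0.0302).

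THBS1, the abundant thrombospondin that binds CD36 and CD47, was lowest in RasV12 but varied widely within lines. The hg38 locus is chr15:39581079-39599466 on the plus strand (ENSG00000137801). RasV12 had 455, 152 and 775 CPM. ARPE19 had 1891, 711 and 762 CPM, the libraries labelled T53D4 had 2680, 598 and 679 CPM, MekDD had 2131, 809 and 1017 CPM, and AKTmyr had 2138, 1343 and 1019 CPM. Every AKTmyr and MekDD library was above every RasV12 library, while RasV12 overlapped with ARPE19 and with T53D4. No THBS1 difference was called in the fit of all libraries without the replicate block. With the block, RasV12 was lower than T53D4 by a log2 difference of -1.27 (adjusted p = 0.04995) and lower than MekDD by -1.43 (adjusted p = 0.0377). Without RasV12 replicate 3 it was called lower than AKTmyr (-2.30, adjusted p = 0.0327). THBS1 shares 448 exonic bases with FSIP1 and 411 with AC037198.2, both on the other strand.

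THBS2, its scarce relative, was lowest in MekDD. The locus is chr6:169215780-169254044 on the minus strand (ENSG00000186340). MekDD had 0.499, 0.661 and 1.10 CPM, from 68 reads, and the other 12 libraries had 1.35 to 4.53 CPM. All MekDD libraries lay below all the others. THBS2 fell in MekDD, with log2 differences of -2.28 against T53D4 (SE 0.40, adjusted p = 0.00407), -1.97 against ARPE19 (adjusted p = 0.0075) and -1.98 against AKTmyr (adjusted p = 0.00321), and these 3 calls held without any 1 library. RasV12 was above MekDD 2.82-fold (adjusted p = 0.0216), a call lost without RasV12 replicate 1 or 2 or MekDD replicate 1 or 2 (adjusted p 0.0644 to 0.0852). THBS2 in RasV12 was called lower than T53D4 without T53D4 replicate 1 (log2 difference -1.07, adjusted p = 0.0463).

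FN1, the adhesive glycoprotein bound by many integrins, was not called in any of the 10 comparisons. It lies at chr2:215360440-215436073 on the minus strand (ENSG00000115414). Its levels in replicates 1, 2 and 3 were 1450, 772 and 513 CPM in ARPE19, 1689, 817 and 512 CPM in the libraries labelled T53D4, and 766, 680 and 1720 CPM in RasV12. MekDD had 1665, 1110 and 776 CPM and AKTmyr had 1563, 1710.0 and 558 CPM. All 5 lines overlapped, with means from 912 CPM (ARPE19) to 1277 CPM (AKTmyr). The spread between the libraries of a line was 37.9% to 60.7% of its mean.

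Of the microfibril genes, FBN1 was not called in any comparison and FBN2 was called in 1. FBN1, the main fibrillin of adult tissue, is encoded at chr15:48408306-48645849 on the minus strand (ENSG00000166147). Its levels were 898, 530 and 460 CPM in ARPE19, 597, 445 and 473 CPM in T53D4 and 467, 324 and 756 CPM in RasV12. MekDD had 483, 353 and 444 CPM and AKTmyr had 798, 567 and 505 CPM. No line stood apart from the others.

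FBN2, a fibrillin of early development, is encoded at chr5:128257909-128659185 on the minus strand (ENSG00000138829). Its levels were 157, 168 and 168 CPM in ARPE19, 142, 173 and 203 CPM in the libraries labelled T53D4, 82.2, 140.0 and 118 CPM in RasV12, 120, 133 and 186 CPM in MekDD and 159, 251 and 207 CPM in AKTmyr. Every RasV12 library was below every T53D4, ARPE19 and AKTmyr library. It was called in RasV12 against AKTmyr (log2 difference -0.86, adjusted p = 0.00728), and with the replicate block also in RasV12 against T53D4 (-0.62, adjusted p = 0.00649) and in MekDD against AKTmyr (-0.49, adjusted p = 0.0216). The call against T53D4 was also made without T53D4 replicate 1 (adjusted p = 0.0497) or RasV12 replicate 2 (adjusted p = 0.0369). FBN2 was further called lower in RasV12 than in ARPE19 without RasV12 replicate 2 (-0.71, adjusted p = 0.0468) and lower in MekDD than in AKTmyr without MekDD replicate 3 (-0.70, adjusted p = 0.0488). Reads of FBN2 overlap SLC27A6, on the other strand, over 56 exonic bases.

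FBLN1, a fibulin that binds fibronectin and other matrix proteins, was nearly lost in RasV12. Its coordinates are chr22:45502238-45601135 on the plus strand (ENSG00000077942). RasV12 had 2.77, 1.09 and 1.76 CPM. ARPE19 had 29.9, 10.3 and 9.70 CPM, the libraries labelled T53D4 had 66.0, 18.9 and 14.4 CPM, MekDD had 67.9, 38.2 and 33.1 CPM, and AKTmyr had 90.1, 52.3 and 16.6 CPM. Every RasV12 library lay below every library of the other lines, and replicate 1 was the highest in all 5 lines. FBLN1 fell in RasV12, with log2 differences of -4.17 against T53D4 (SE 0.78, adjusted p = 0.00143), -3.18 against ARPE19 (adjusted p = 0.00611), -4.66 against MekDD (adjusted p = 0.00124) and -4.85 against AKTmyr (adjusted p = 0.000349). These 4 calls held without any 1 library and under every other setting tried, though the log2 difference from T53D4 was -3.17 without T53D4 replicate 1, that from ARPE19 was -2.44 without ARPE19 replicate 1, and that from AKTmyr was -4.24 without AKTmyr replicate 1. With the replicate block, FBLN1 rose in MekDD and AKTmyr against ARPE19, by 1.63 (adjusted p = 0.00333) and 1.66 (adjusted p = 0.00202). The rise in AKTmyr was also called without the block when ARPE19 replicate 1 (2.40, adjusted p = 0.0471) or AKTmyr replicate 3 (2.095, adjusted p = 0.0419) was left out.

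ITIH5 was nearly absent from RasV12 and MekDD and highest in AKTmyr. Its hg38 position is chr10:7559270-7666998 on the minus strand (ENSG00000123243). AKTmyr had 35.0, 20.3 and 10.3 CPM, ARPE19 had 14.2, 4.92 and 3.998 CPM, and the libraries labelled T53D4 had 4.48, 5.14 and 4.38 CPM. RasV12 had 0, 0 and 0.135 CPM, from 3 reads, and MekDD had 0, 0 and 0.0423 CPM, from 1 read. A library without a read here allows a level of up to 0.0709 to 0.110 CPM, the value of 3 reads. Every RasV12 and MekDD library was below every library of the other lines.

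The level in T53D4 was 146 times that in RasV12 (95% exact binomial interval 49.8 to 712) and 454 times that in MekDD (81.1 to 18000). In ARPE19 it was 244 times that in RasV12 (83.2 to 1190) and 757 times that in MekDD (136 to 29900), and in AKTmyr 710 times that in RasV12 (243 to 3440) and 2200 times that in MekDD (395 to 87000). All 6 differences were called, and the calls held under the settings tried. The intervals cover counting error only, and the test by edgeR quasi-likelihood gave adjusted p = 9.63e-05 for RasV12 against T53D4. Between RasV12 and MekDD, the ratio of 3.1 (interval 0.249 to 163) covers 1. ITIH5 rose in AKTmyr against T53D4 by 2.23 (SE 0.53, adjusted p = 0.0105), a call lost without AKTmyr replicate 1 (log2 difference 1.73, adjusted p = 0.0528). Against ARPE19 the rise was called with the replicate block (1.54, adjusted p = 0.00793) but not in the model without it, where it passed when ARPE19 replicate 1 (2.29, adjusted p = 0.0101) or AKTmyr replicate 3 (1.84, adjusted p = 0.0276) was left out.

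**Figure D2:**
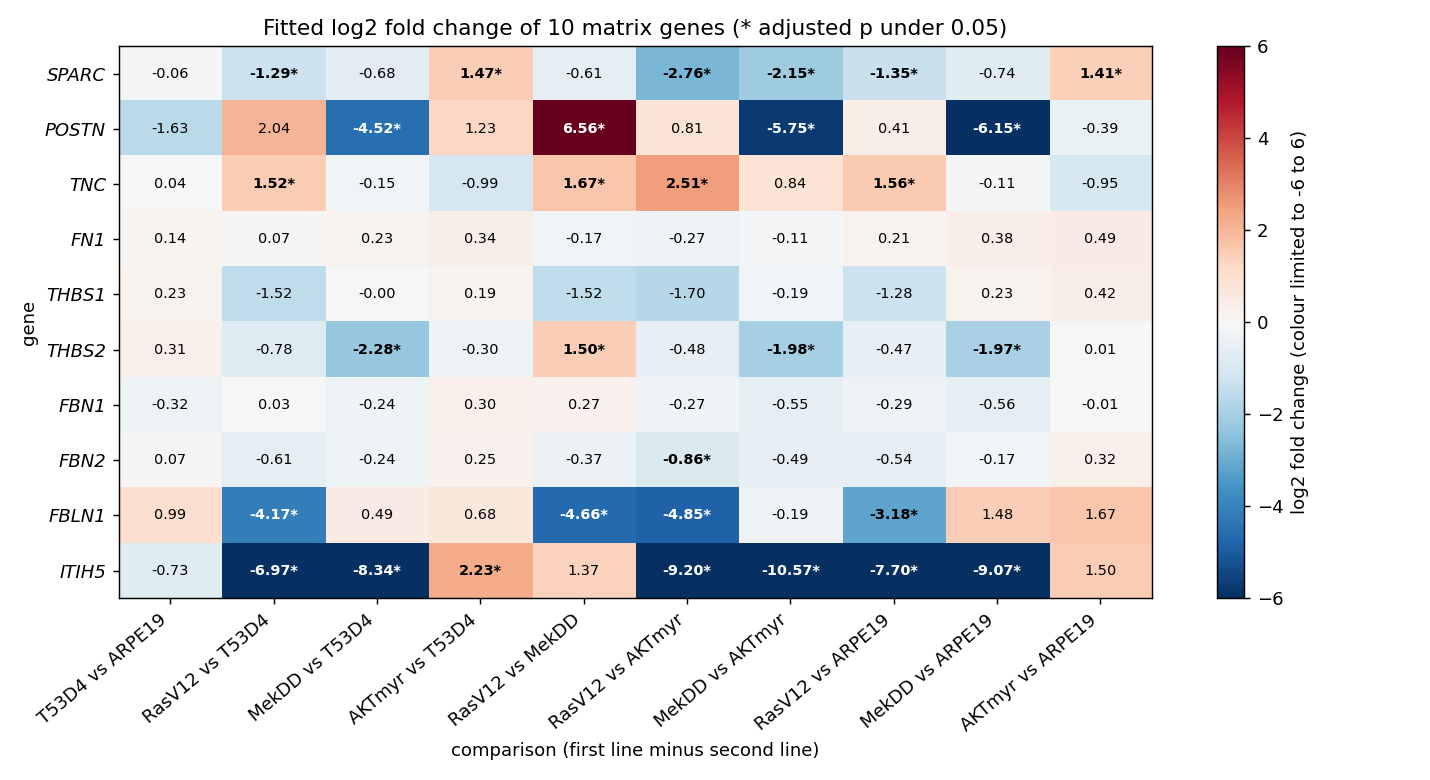
Heat map of the fitted log2 fold change of each gene (rows) in each of the 10 comparisons (columns, the line named before minus the line named after), with the value in each cell, colour limited to 6 either way, and an asterisk for adjusted p under 0.05. FBLN1 is lower in RasV12 in each of its 4 comparisons and FN1 and FBN1 carry no asterisk; the fitted changes of ITIH5 in RasV12 and MekDD rest on 3 and 1 reads.

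Over the 10 genes, T53D4 against ARPE19 gave 0 calls by edgeR, where 0.154% of all genes were called; 0 members had an unadjusted p under 0.05, and DESeq2 and the replicate block also called 0. RasV12 against T53D4 called 4 of 10, where 24.4% of all genes were called: 1 higher (10.8% of all genes) and 3 lower (13.6%). With the replicate block it called 7 of 10, where 35.8% of all genes were called. MekDD against T53D4 called 3 of 10 (5.1% of all genes), 0 higher (2.27%) and 3 lower (2.83%). AKTmyr against T53D4 called 2 of 10 (20.1% of all genes), 2 higher (9.91%) and 0 lower (10.2%). With the block, MekDD and AKTmyr again called 3 and 2 of 10 against T53D4, where 11.7% and 34.8% of all genes were called. The replicates of the compared lines did not overlap for 5 members in RasV12 (40.1% of all genes), 3 in MekDD (24% of all genes) and 2 in AKTmyr (35.5% of all genes). These 3 comparisons share the T53D4 libraries, whose cyclin D1 and CDK4 rows were near ARPE19. In the libraries labelled MekDD these rows were also far below RasV12 and AKTmyr. The median log2 change of the 10 genes was -0.69 in RasV12, -0.24 in MekDD and 0.32 in AKTmyr, against medians over all genes of 0.01, 0.00 and -0.01.

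Against ARPE19, RasV12 gave 4 calls (background 30.7%), MekDD 3 (10.9%) and AKTmyr 1 (16.8%), the last rising to 3 with the block against 29.6%. Between the transforming lines, RasV12 against MekDD gave 4 calls (15.5%), RasV12 against AKTmyr 5 (40.4%) and MekDD against AKTmyr 4 (26.2%). TNC was the member called higher in RasV12 in each of its 4 comparisons, while POSTN and THBS2 were called lower in MekDD in each of its 4.

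Samples of the same line differed in a way that, for several genes, was shared across lines, though its direction varied between genes. Replicate 1 was the highest in 5 of 5 lines for FBLN1 and in 4 of 5 for SPARC, THBS1 and FBN1. Replicate 1 was the lowest in 5 of 5 lines for FBN2, in 4 of 5 for THBS2 and in 3 of 5 for TNC. RasV12 was the exception for SPARC, THBS1 and FBN1, where its replicate 3 had the highest value of the 3. Its replicate 3 was also the highest for FN1 and POSTN, genes for which replicate 1 was highest in 3 of 5 lines. The cause of this shared deviation was not tested.

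**Figure D3:**
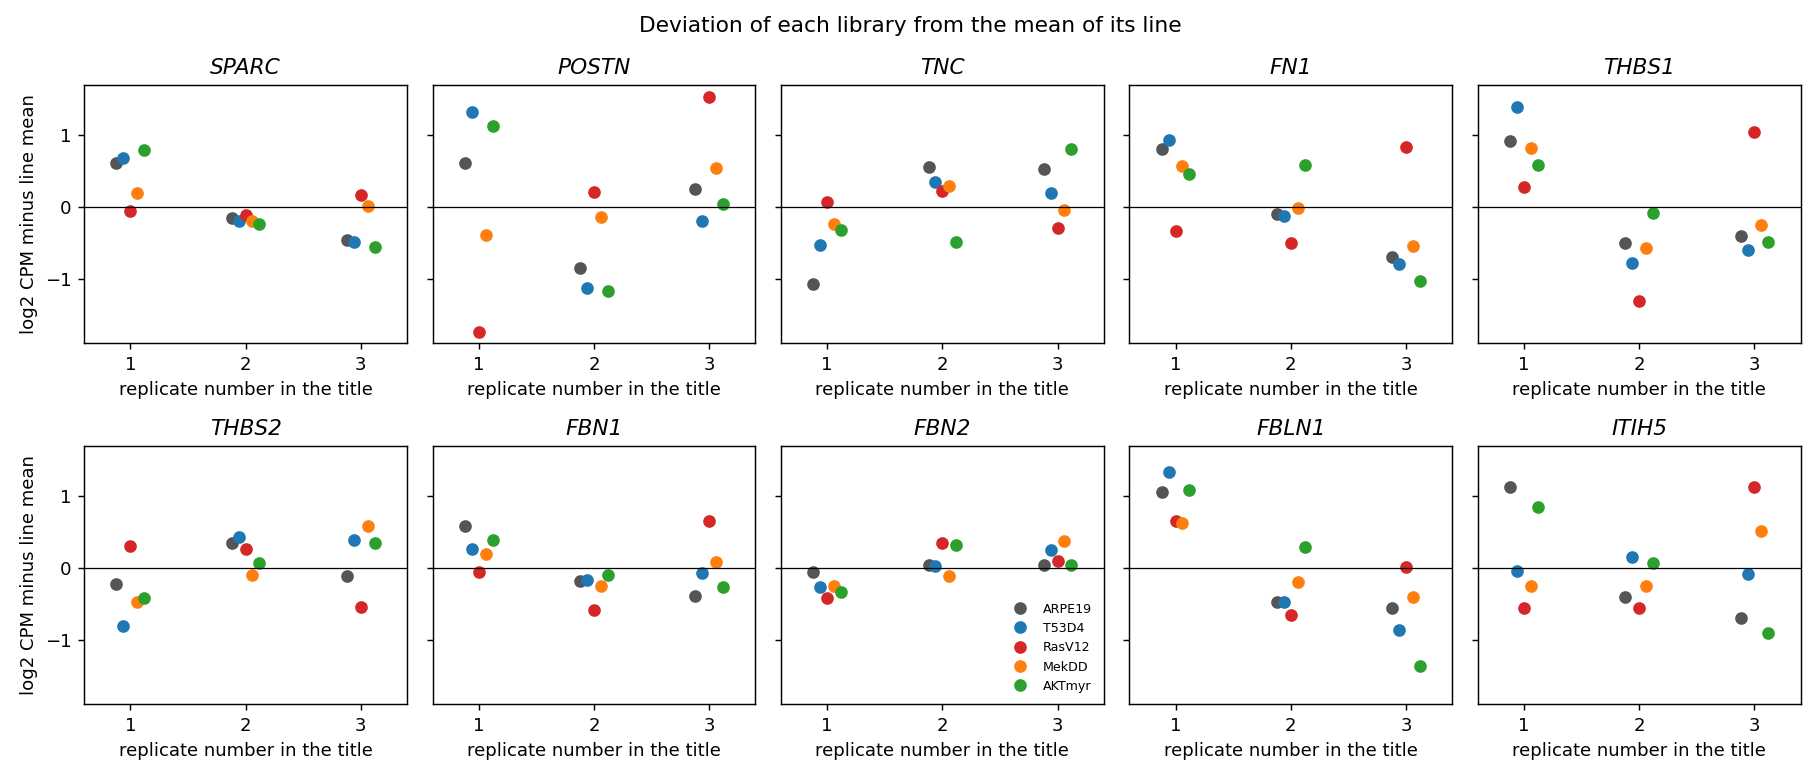
Deviation of each library from its line mean (y axis, log2 CPM) for each gene, by replicate number (x axis), with a colour for each cell line. FBLN1 is highest in replicate 1 of all 5 lines, FBN2 is lowest there, and RasV12 replicate 3 lies above its line mean for FN1, POSTN, THBS1, FBN1 and SPARC.

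The other genes of these matrix networks were grouped in 5 lists that hold none of the 10 genes. In T53D4 against ARPE19 no gene of any list was called, where 0.154% of all tested genes were. For the counts that follow, the shares of all tested genes called against T53D4 were 10.8% higher and 13.6% lower in RasV12. They were 2.27% higher and 2.83% lower in MekDD, and 9.91% higher and 10.2% lower in AKTmyr. Of 15 tested matricellular relatives, 2 rose and 5 fell in RasV12 against T53D4, 0 rose and 1 fell in MekDD, and 2 rose and 0 fell in AKTmyr. SPP1 (osteopontin) rose in RasV12 by 4.51 (SE 0.88, adjusted p = 0.00204) and in AKTmyr by 4.75 (SE 0.89, adjusted p = 0.00305). FSTL1, a follistatin-related glycoprotein, fell by 1.67 in RasV12 (adjusted p = 0.0218), and TGFBI, an adhesion protein related to periostin, rose in AKTmyr by 1.48 (adjusted p = 0.00245). Medians of this list were -0.71 in RasV12, -0.31 in MekDD and 0.36 in AKTmyr.

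Among 17 tested genes of elastic fibres and microfibrils, MekDD had 0 higher and 3 lower, RasV12 had 3 higher and 5 lower, and AKTmyr had 3 higher and 2 lower. FBLN2, a relative of FBLN1, fell by 2.85 in RasV12 (SE 0.53, adjusted p = 0.00134) and fell by 2.31 in MekDD (adjusted p = 0.0159). FBLN7 had log2 differences of -0.69 in RasV12 (adjusted p = 0.0466), -2.13 in MekDD (adjusted p = 0.000128) and -1.05 in AKTmyr (adjusted p = 0.00806). MMRN2 rose in RasV12 by 2.11 (adjusted p = 0.000211) and MFAP4, a microfibril protein, in AKTmyr by 2.33 (adjusted p = 0.00433). List medians were -0.67, -0.14 and 0.19.

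Of 15 tested receptors, 5 rose and 2 fell in RasV12, none was called in MekDD, and 5 rose and 0 fell in AKTmyr. PLAUR, the urokinase receptor, rose in RasV12 by 2.30 (SE 0.27, adjusted p = 3.83e-05), and ITGB3 by 1.84 (adjusted p = 0.0323). ITGA4, an integrin chain that binds fibronectin, fell by 1.77 in RasV12 (adjusted p = 1.23e-05). ITGA5, the alpha chain of the main fibronectin receptor, rose in AKTmyr by 1.23 (adjusted p = 0.00494), and LRP1, a receptor that clears thrombospondins, by 0.99 (adjusted p = 0.0455). List medians were 0.18, 0.24 and 0.48.

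Of 9 tested genes of the inter-alpha-trypsin and hyaluronan list, 4 rose and 0 fell in RasV12, 1 rose and 0 fell in MekDD, and 2 rose and 0 fell in AKTmyr. CD44, the hyaluronan receptor, rose in RasV12 by 1.72 (SE 0.19, adjusted p = 2.02e-05) and in MekDD by 0.79 (adjusted p = 0.0227). HYAL1, which cleaves hyaluronan, rose in AKTmyr by 2.69 (adjusted p = 7.77e-05), and CEMIP, a hyaluronan-binding protein, by 3.47 (adjusted p = 0.0154). The CEMIP level varied widely between the AKTmyr libraries, with a mean of 11.8 CPM and a larger SD of 13.5 CPM. List medians were -0.61, -0.04 and 0.21, so the list median was negative in RasV12 although each called gene rose there.

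Of 19 tested genes for assembly, crosslinking and cleavage, AKTmyr had 4 higher and 2 lower, RasV12 had 3 higher and 5 lower, and MekDD had 2 higher and 1 lower. ADAMTSL1 rose in RasV12 by 3.62 (SE 0.27, adjusted p = 7.01e-07) and in MekDD by 4.24 (adjusted p = 9.57e-07), and by 1.70 in AKTmyr (adjusted p = 0.000743). TGM2, a transglutaminase that crosslinks matrix proteins, rose in RasV12 by 2.98 (adjusted p = 4.24e-05) and in MekDD by 2.63 (adjusted p = 0.000433). MMP2, a gelatinase, fell by 3.57 in MekDD (adjusted p = 0.000113) and fell by 1.52 in RasV12 (adjusted p = 0.00796), and rose in AKTmyr by 3.17 (adjusted p = 0.000159). LOXL4, a lysyl oxidase-like enzyme, fell by 3.12 in AKTmyr (adjusted p = 0.000212). List medians were -0.46, -0.02 and -0.29. All of these comparisons against T53D4 share its libraries, and the lists were drawn up with earlier results of these data known.

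**Figure D4:**
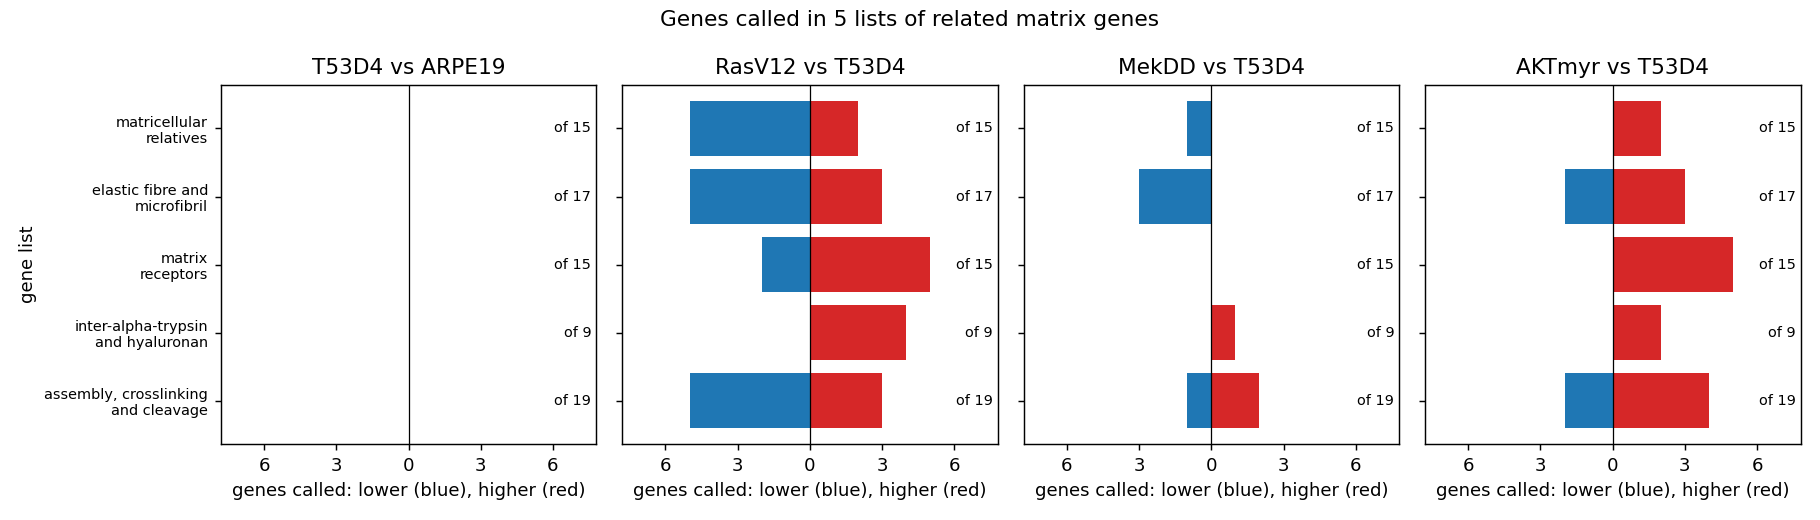
Number of tested genes called higher (right, red) or lower (left, blue) under adjusted p 0.05 (x axis) in each of the 5 lists (y axis, with the number tested at the right), for T53D4 against ARPE19 and for RasV12, MekDD and AKTmyr against T53D4. No list has a call in T53D4 against ARPE19, where 0.154% of all genes were called, and each list has more calls in RasV12 than in MekDD, as all genes did (24.4% and 5.1%).

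Over the 15 libraries, the gene most like each member by Pearson correlation of log2 level was PIGS for SPARC (r = 0.978), ZNF662 for POSTN (0.935), GSTO1 for TNC (0.974), DCBLD1 for FN1 (0.892) and CDH2 for THBS1 (0.921). It was SPG21 for THBS2 (0.915), PLXNA3 for FBN1 (0.930), PITPNM3 for FBN2 (0.919), CELSR1 for FBLN1 (0.971) and ANXA8 for ITIH5 (0.980). The next 2 were SEMA5B and AGPAT4 for SPARC, ZNF549 and ABCA13 for POSTN, ORC5 and CPSF2 for TNC, SLC10A3 and LRRC8A for FN1, and IGSF3 and ANKDD1A for THBS1. They were TAPBP and IDUA for FBN1, AP2M1 and EPB41L1 for FBN2, FAAH and KIAA0930 for FBLN1 and ZNF257 and EDN2 for ITIH5, and NIBAN1 came next for THBS2. These are descriptions only: the points fall into 5 lines of 3 libraries and share library depth.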

How the data were processed

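Raw read counts per gene were deposited by the authors for 15 libraries, 3 per line, and each column was assigned to its line by its label. Per the submitters' processing notes, the tools named for hg38 were DESeq2 1.28.1, deepTools 3.2.0, SAMtools 1.9, featureCounts 1.6.4, HISAT2 2.1.0 and fastp 0.20.0; no role or setting is given, and use of strand is not stated. The table held 15517 rows, with a smallest row total of 10; 7 construct rows were left out, so that 15510 genes remained. The other deposited tables were not used for values.

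Levels are CPM computed here with TMM factors, and levels compared between genes were divided by the exon length in the deposited annotation. Tests used edgeR 4.0.16 (R 4.3.3) with its quasi-likelihood test on all 15 libraries with line as the factor, after filterByExpr (minimum count 10), and Benjamini-Hochberg adjustment over the 13599 genes of a comparison; a gene is called under 0.05. The code was tested on simulated counts. Alternatives were RLE factors, no filter, a stricter filter (1 CPM in 3 libraries), DESeq2 1.42.0, the 2 lines alone, construct rows kept, a replicate block and each library left out.

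Libraries with the same replicate number deviated together: over 30 such pairs of lines the correlation of residuals was 0.0103 to 0.722 (median 0.340), against a median of -0.172 over 60 pairs with different numbers. Residuals were taken from the line mean and sum to 0 within a line. Positive values for the same number thus push those for different numbers below 0, and the second median is not separate support. Every pair with the same number exceeded 0.1 in 8 of 10 comparisons, and by that rule the numbers paired the libraries there. RasV12 against AKTmyr and against ARPE19 did not meet the rule. The main tests used line alone in all 10 comparisons, without pairing, and the replicate block was only an alternative. The labels do not say what a number marks.

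Named genes were all members, up to 2 called genes per direction and list with the largest change and a mean of 5 CPM or more in the line with more, and the 3 genes most correlated with each member. A gene that this rule selects is not reported here. Members, lists and alternatives were chosen with earlier results of these data known. Promoter sequences are from RefSeq.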

Additional observations from a re-analysis of the deposited data

Results flagged for a closer look

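SPARC moved in opposite directions against the libraries labelled T53D4 in RasV12 (-1.29) and AKTmyr (1.47), and the test of the difference between these effects gave -2.76 on the log2 scale by edgeR quasi-likelihood (adjusted p = 0.000115). ITIH5 likewise moved in opposite directions in RasV12 and AKTmyr, with a fitted difference of -9.20, and in MekDD and AKTmyr, with a fitted difference of -10.57. Both fitted values rest on 3 and 1 reads in RasV12 and MekDD and depend on the prior count, so the ratios in the report are the better guide to size. All 3 were picked because the test of the difference passed while both effects, each called against T53D4, had opposite signs. Other members also passed that test with opposite fitted signs, but with an effect that was not called, such as FBLN1 and TNC in RasV12 and AKTmyr. No cause was tested.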

How the results depend on the processing

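Of 1299 recomputed fold changes of the 10 genes, 1179 kept direction and side of the threshold, and RLE factors, construct rows kept and the stricter filter changed none. All 250 recomputed levels moved by less than 1 SD. With the replicate block, calls over all genes were 232 against 21 in T53D4 against ARPE19, 1589 against 694 in MekDD against T53D4, 4738 against 2738 in AKTmyr against T53D4, 3588 against 2108 in RasV12 against MekDD, 5481 against 3560 in MekDD against AKTmyr, 3064 against 1479 in MekDD against ARPE19 and 4027 against 2290 in AKTmyr against ARPE19. DESeq2 called 192 and 1127 genes in the first 2 of these. With 2 lines alone, fewer samples gave 2 calls in T53D4 against ARPE19, 1449 in AKTmyr against T53D4, 2349 in MekDD against AKTmyr and 1365 in AKTmyr against ARPE19. Members called were 7 with the block in RasV12 against T53D4 (4 without it), 1 with 2 lines alone in AKTmyr against T53D4 (2 in the fit of all lines), where SPARC was lost (adjusted p = 0.0595), and 2 with DESeq2, 3 with the block and 0 with 2 lines alone in AKTmyr against ARPE19 (1 in the fit of all lines), where SPARC was lost (adjusted p = 0.0745). DESeq2 also called FBN2 in RasV12 against T53D4 (-0.60, adjusted p = 0.0372) and ITIH5 in AKTmyr against ARPE19 (1.51, adjusted p = 0.0254), and 2 lines alone called SPARC in RasV12 against MekDD (-0.61, adjusted p = 0.0310) and THBS1 in RasV12 against AKTmyr (-1.71, adjusted p = 0.0379). Where the replicate numbers did not pair the libraries by the rule used, the block called THBS1 in RasV12 against AKTmyr (-1.74, adjusted p = 0.00813) and FBN2 in RasV12 against ARPE19 (-0.57, adjusted p = 0.00905); in 56 of 60 library and line pairs the best match had the same number, a hint from the data. Beyond the calls given here and in the report, the block changed no other call. Uncalled changes that turned sign were THBS1 in MekDD against T53D4 with the block (0.16) and with 2 lines alone (0.0051), FN1 in RasV12 against MekDD with the block (0.065), FBN1 in AKTmyr against ARPE19 without a filter (0.0091) and with the block (0.0038), and THBS2 there with the block (-0.0039). The cause of these moves was not tested.

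Leaving out each library in turn gave, for genes called, 1328 to 2087 in AKTmyr against ARPE19 (2290 with all), 1611 to 2669 in AKTmyr against T53D4 (2738 with all), 2271 to 3698 in MekDD against AKTmyr (3560 with all), 685 to 1603 in MekDD against ARPE19 (1479 with all), 360 to 600 in MekDD against T53D4 (694 with all), 4319 to 5677 in RasV12 against AKTmyr (5490 with all), 2971 to 4276 in RasV12 against ARPE19 (4169 with all), 1352 to 1815 in RasV12 against MekDD (2108 with all), 2534 to 2862 in RasV12 against T53D4 (3313 with all) and 1 to 6 in T53D4 against ARPE19 (21 with all). For members called it gave 0 to 4 in AKTmyr against ARPE19 (1 with all), 0 to 3 in AKTmyr against T53D4 (2 with all), 4 to 5 in MekDD against AKTmyr (4 with all), 3 in MekDD against ARPE19 (3 with all), 2 to 3 in MekDD against T53D4 (3 with all), 5 to 6 in RasV12 against AKTmyr (5 with all), 3 to 5 in RasV12 against ARPE19 (4 with all), 2 to 4 in RasV12 against MekDD (4 with all), 3 to 5 in RasV12 against T53D4 (4 with all) and 0 in T53D4 against ARPE19 (0 with all). Some uncalled changes turned sign without 1 library. Fitted log2 changes were -0.49 to 0.31 for SPARC, -0.34 to 0.29 for TNC, -0.46 to 0.64 for FN1, -0.82 to 0.84 for THBS1, -0.50 to 0.0232 for FBN1, -0.0581 to 0.19 for FBN2, -0.00343 to 1.72 for FBLN1 and -1.03 to 0.0601 for ITIH5 in T53D4 against ARPE19. In RasV12 against T53D4 they were -0.48 to 0.68 for FN1 and -0.35 to 0.28 for FBN1. In MekDD against T53D4 they were -0.36 to 0.0377 for TNC, -0.0928 to 0.84 for FN1 and -0.53 to 1.05 for THBS1. In AKTmyr against T53D4 they were -0.16 to 1.23 for THBS1. In RasV12 against MekDD they were -0.71 to 0.16 for FN1, -0.11 to 0.52 for FBN1 and -1.93 to 3.30 for ITIH5. In RasV12 against AKTmyr they were -0.18 to 1.53 for POSTN. In MekDD against AKTmyr they were -0.47 to 0.16 for FN1, -0.71 to 0.14 for THBS1 and -0.61 to 0.41 for FBLN1. In RasV12 against ARPE19 they were -0.57 to 0.90 for POSTN, -0.33 to 0.72 for FN1 and -0.67 to 0.0603 for FBN1. In MekDD against ARPE19 they were -0.48 to 0.14 for TNC and -0.30 to 0.84 for THBS1. In AKTmyr against ARPE19 they were -1.13 to 0.00617 for POSTN, -0.17 to 0.21 for THBS2 and -0.23 to 0.33 for FBN1. With a single library left out, 2 remain in that line, and the spread is shared over all lines. ITIH5 gave no value with the RasV12 and MekDD lines alone, since it fell under the filter. Depth limits ITIH5 in RasV12 and MekDD, POSTN and THBS2 in MekDD and FBLN1 in RasV12, where reads are few.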
